A study of Arabidopsis thaliana with 12 samples.

Results

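Genes of the machinery that moves membrane vesicles inside plant cells were followed in the leaves of Arabidopsis thaliana plants exposed to different amounts of gaseous formaldehyde. The genes were those whose symbol begins, in any case, with PRA1, SEC, SYP, VAMP, VTI, VPS, EXO70 or RAB and that are paired with a probe set of their own in the array annotation. The rule found 31 probe sets for 31 genes among the 22746 probe sets tested. They were 9 PRA1, 11 SEC, 10 VPS and 1 RAB gene, and the annotation gave no SYP, VAMP, VTI or EXO70 gene by these names. The annotation used here names few genes by symbol (13513 probe sets were paired with 1 gene, of which 1580 carried a symbol other than the locus name), so the 31 are a fraction of the 171 genes with these prefixes in the RefSeq gene table. In that table the prefixes cover 23 SYP, 11 VAMP, 2 VTI, 23 EXO70 and 50 RAB genes, so nothing below speaks for syntaxins, VAMP proteins, EXO70 subunits or most RAB GTPases.

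All plants were 7-week-old Columbia plants of the double transgenic type named AB. Each carried the rmpA and rmpB genes of Mycobacterium gastri MB19, whose enzymes fix formaldehyde, with their products directed to chloroplasts. Every group shared these transgenes, and no untransformed plant was analysed here, so a change below is a change of formaldehyde-assimilating plants. After 72 h of acclimation at 24 °C in constant light, 3 plants were kept outside the chamber (below 0.08 ppm formaldehyde), and 3 plants each spent 150 min in the light in a 10 L chamber holding air (below 0.04 ppm), a low dose of 1 to 2 ppm or a high dose of 14 to 16 ppm. Per the labels' protocols, 3 plants were put into the chamber for each condition and taken as its replicates, and no repeat run is described. If they were exposed together, the effects of a condition and of its run cannot be told apart, and p-values measure only the spread between these plants. RNA of rosette leaves of each plant went onto 1 array, giving 12 arrays, and the values are log2 intensities after GCRMA, a background correction and normalization for such arrays. The lowest value of the table was 2.11, and a probe set within 0.5 of it in a group mean was read as background.

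Membrane traffic in plants runs from the endoplasmic reticulum through the Golgi to the plasma membrane, and from the plasma membrane and Golgi to the vacuole. RAB GTPases mark each compartment, tethers such as the exocyst hold an arriving vesicle, and SNARE proteins with their Sec1/Munc18 partners drive the fusion. ESCRT complexes sort ubiquitin-tagged membrane proteins into the inner vesicles of multivesicular bodies on their way to the vacuole, and ESCRT-III is the part that shapes and cuts those vesicles. PRA1 proteins (prenylated RAB acceptors) are small membrane proteins that bind RAB GTPases.

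At the high dose, 13 of the 31 members were higher and 3 were lower than in the air plants. Of all 31 members, 12 were both called and at least 2-fold, beside 18.9% of all probe sets. With probe sets without signal left out, as described below, 4420 of 14399 were. The call was an adjusted p under 0.05 from limma's moderated test with Benjamini-Hochberg adjustment over all 22746 probe sets. Over all probe sets, 34.6% were called in this comparison, with 14.7% higher and 19.9% lower. The median log2 change was 0.25 over the members and 0 over all probe sets. Many probe sets on the array were at background, and when probe sets without signal were left out the shares over the remaining 14399 were 58.6% called, 24.2% higher and 34.4% lower. Of the 29 members left by that filter, 13 were higher and 3 lower, so the total lay near that background while the split leaned the other way from all probe sets. By family, 5 PRA1, 3 SEC and 5 VPS genes were higher, and 2 SEC genes and 1 VPS gene were lower.

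With all probe sets tested, the low dose and the chamber itself gave no called member. Against the air plants, 0 of 31 members passed at the low dose, where 1.24% of all probe sets were called. An unadjusted p under 0.05 (limma) was found for 8 of the 31, beside 4065 of the 22746 probe sets. Without dim probe sets 1 of 29 members passed there (SEC), beside 8.19%. Between the air plants and the plants outside, 0 of 31 passed, beside 5.6% of all probe sets. There 5 of the 31 had an unadjusted p under 0.05, beside 4493 of the 22746 probe sets. Without dim ones 1 of 29 passed (VPS2.2), beside 13.5%. Against the low dose, the high dose gave 13 higher and 3 lower members, beside 33.8% of all probe sets (15.5% higher, 18.3% lower). Without dim probe sets 18 of 29 members passed there (13 higher, 5 lower), beside 8197 of 14399 probe sets (3629 higher, 4568 lower). The total of called members thus lay near that background. Of the 31 members, 10 were both called and at least 2-fold high against low, beside 18.0% of all probe sets (4183 of 14399 without dim ones). Against the outside plants the high dose gave 12 higher and 5 lower members, beside 37.5% of all probe sets (16.4% higher, 21.1% lower). Comparisons with the high dose share its 3 plants and are set side by side only. PRA1.A1, PRA1.B4, PRA1.E, SEC15B, SEC1B, SEC22, VPS2.1, VPS20.1, VPS46.2, VPS60.1 and VPS60.2 were higher, and SECE1 and VPS9B lower, at the high dose against each of the other groups.

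Several values of the whole series bear on every result. Among the air plants, plant 1 stood apart from plants 2 and 3 for several members. The array medians lay between 5.68 and 5.82, and between 26.6% and 28.0% of probe sets were at the lowest value. Probes near the ends of the GAPDH control transcript gave a 3′ minus 5′ difference of 1.54 ± 0.03 (SD, n = 3) at the high dose and 1.82 ± 0.23 in air for the first probe pair. The second pair gave 0.23 ± 0.05 against 0.03 ± 0.10, so the GAPDH pairs moved in opposite directions. Ubiquitin gave 0.59 ± 0.09 at the high dose against 0.64 ± 0.05 in air for its first pair and -0.48 ± 0.04 against -0.37 ± 0.06 for its second. Actin gave 0.89 ± 0.15 against 0.65 ± 0.14. The array annotation paired 9 of the 67 listed cell type markers with a probe set: 5 of 26 for mesophyll, 2 of 7 for guard cells and 2 of 9 for root. LHCB4.1, LHCB4.2 and RCA of mesophyll gave means between 14.7 and 14.9 at the high dose and were not called against air, while PRK and SBPASE, of the same list, fell by 0.96 and 0.92 on the log2 scale. Of the guard cell pair, FMA fell by 0.83 against air (adjusted p = 0.0490, limma) and GC1 was not called against air (-0.58, adjusted p = 0.415). GC1 was higher at the low dose than outside (2.46, adjusted p = 0.0137) and lower at the high than at the low dose (-1.57, adjusted p = 0.0247). FMA was also lower at the high than at the low dose (-1.27, adjusted p = 0.0071, limma) and than outside (-2.07, adjusted p = 0.000377). In air FMA was lower than outside (-1.23, adjusted p = 0.0413), where GC1 was 1.47 higher without a call (adjusted p = 0.104). Of the root pair, EXPA7 was at the lowest value in every plant, and PYK10 read 6.17 in air plant 3 and the lowest value in every other plant. The part of RNA quality and of the cell mixture in the changes below was not tested. In these leaf extracts, fewer cells of a type and less RNA per cell cannot be told apart.

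The VPS genes called higher at the high dose against air were ESCRT-III genes, 5 of 8, with none lower. Over all probe sets 14.7% were higher and 34.6% called, and without dim ones 24.2% and 58.6%. The call of VPS60.2, 1 of the 5, was lost in several fits that left out 1 plant. VPS22 of ESCRT-II was not called. The strongest rise was that of VPS60.1 (AT3G10640), an ESCRT-III-associated protein. Its log2 values were 7.38, 7.51 and 7.47 in outside plants 1 to 3, 8.35, 7.63 and 7.76 in air, 8.49, 8.40 and 8.32 at the low dose and 11.06, 11.04 and 10.70 at the high dose. The high-dose plants stood far above all other plants, and the low-dose plants lay above every outside plant but not all above air plant 1. High against air, the rise was 3.02 ± 0.18 (SE) on the log2 scale, or 8.10-fold, with adjusted p = 2.88e-06 by limma.

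VPS20.1 (AT5G63880), the subunit that starts ESCRT-III assembly, gave log2 values of 8.09, 7.61 and 7.85 outside, 8.17, 7.60 and 8.04 in air, 8.27, 8.02 and 7.81 at the low dose and 10.42, 10.43 and 9.74 at the high dose. The first 3 groups overlapped and the high-dose plants were all above them. Its rise against air was 2.26 ± 0.23 (SE), or 4.81-fold (adjusted p = 8.11e-05, limma). VPS2.1 (AT2G06530), a core ESCRT-III subunit, read 9.64, 9.69 and 9.65 outside, 9.85, 9.25 and 9.72 in air, 9.98, 9.46 and 9.28 at the low dose and 11.51, 11.35 and 11.83 at the high dose. As with VPS20.1, only the high-dose plants were separate from the others, and the rise against air was 1.96 ± 0.21, or 3.89-fold (adjusted p = 0.000102, limma). VPS46.2 (AT1G73030), also named CHMP1A and a late-acting ESCRT-III relative, had the highest mean of the VPS genes. It read 10.31, 10.53 and 10.36 outside, 10.87, 10.31 and 10.35 in air, 10.80, 10.91 and 10.80 at the low dose and 11.52, 11.56 and 11.55 at the high dose. Here the low-dose plants lay above air plants 2 and 3 but around air plant 1, and the high-dose plants were above all of them. The rise of VPS46.2 against air was 1.03 ± 0.13, or 2.05-fold (adjusted p = 0.000318, limma).

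VPS60.2 (AT5G04850), the second VPS60 copy, changed little. Its log2 values were 8.44, 8.59 and 8.55 outside, 8.85, 8.59 and 8.61 in air, 8.37, 8.20 and 8.38 at the low dose and 8.97, 9.02 and 8.88 at the high dose. The low-dose plants were below all air plants and the high-dose plants were above them, the nearest pair being air plant 1 and high-dose plant 3. High against air, it rose by 0.27 ± 0.08 (1.21-fold, adjusted p = 0.0289, limma), and that call was lost without air plant 2, air plant 3, high-dose plant 1 or high-dose plant 2 (adjusted p between 0.0767 and 0.103). High against low, it rose by 0.64 (adjusted p = 0.000317, limma). VPS2.2 (AT5G44560), the second VPS2 copy, was low and moved differently from VPS2.1. It read 4.36, 4.53 and 4.55 outside, 3.44, 3.78 and 3.43 in air, 4.42, 4.22 and 4.81 at the low dose and 3.74, 2.84 and 3.84 at the high dose. The air and high-dose plants overlapped below the outside and low-dose plants, which also overlapped. High against low, VPS2.2 fell by 1.01 (adjusted p = 0.0156, limma), a call lost without low-dose plant 3 (adjusted p = 0.0604), and against air its log2 change was -0.07 and not called.

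VPS24.1 (AT5G22950), another core ESCRT-III subunit, ranged from 8.45 to 9.30 over the 12 plants and was not called in any comparison with air (-0.08 at the high dose). VPS24.2 (AT3G45000) read 2.11 in every plant, which is background. VPS22 (AT4G27040), of ESCRT-II, lay between 8.47 and 9.11, with a log2 change of -0.05 ± 0.12 at the high dose against air.

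**Figure D1:**
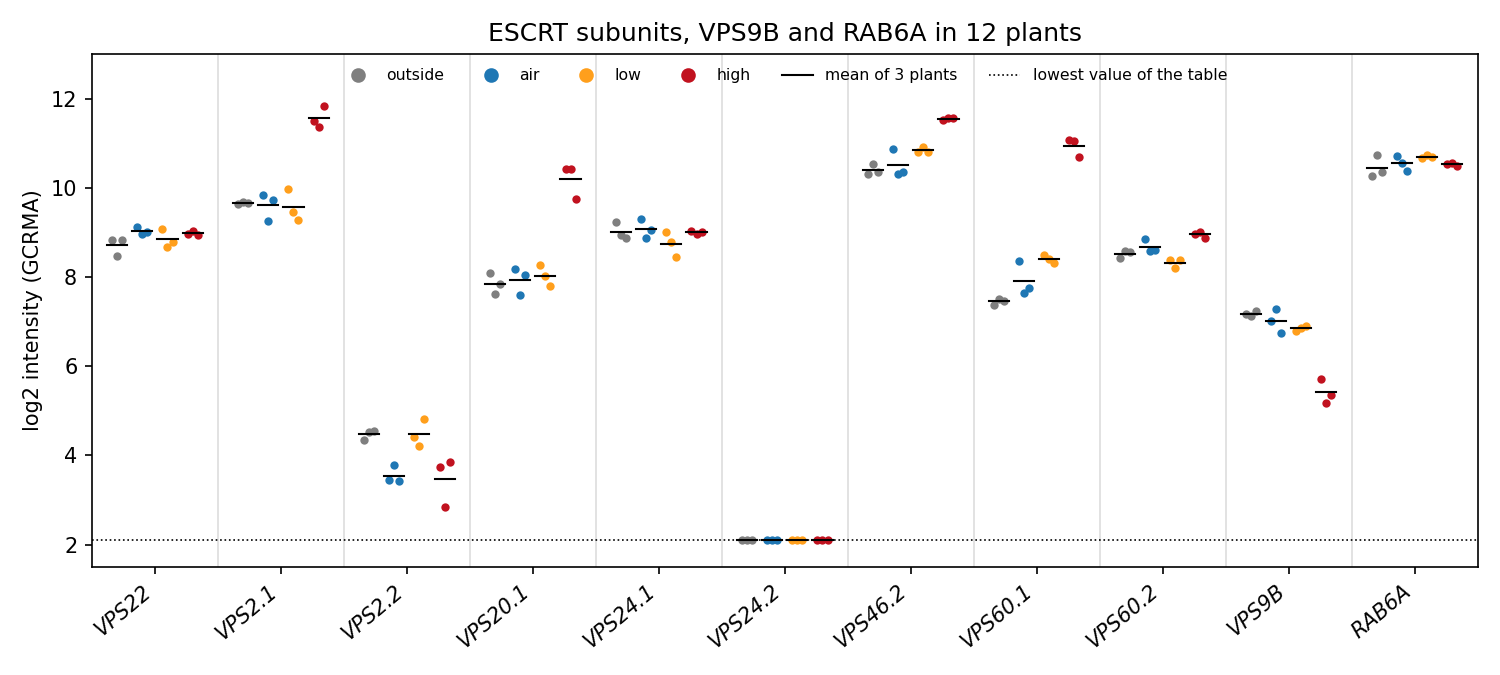
Log2 intensity (GCRMA) of each VPS gene and of RAB6A in the 12 plants, coloured as outside, air, low dose and high dose; points are plants, bars are means of 3 plants and the dotted line is the lowest value of the table. The high-dose plants stand above all others for VPS60.1, VPS20.1, VPS2.1 and VPS46.2. For VPS60.1 the air and low-dose plants, and for VPS46.2 the low-dose plants, also lie above every outside plant. VPS9B is lower at the high dose, and VPS24.2 lies at background.

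VPS9B (AT5G09320), related to the exchange factor VPS9A that activates RAB5 GTPases, was the 1 VPS gene that fell. Its log2 values were 7.17, 7.13 and 7.24 outside, 7.02, 7.28 and 6.74 in air, 6.79, 6.86 and 6.89 at the low dose and 5.70, 5.18 and 5.35 at the high dose. Only the high-dose plants were separate from the air plants, and VPS9B fell by 1.60 ± 0.16 on the log2 scale against air (adjusted p = 6.28e-05, limma). RAB6A (AT2G44610), a Golgi RAB GTPase and the only RAB gene in the set, was level: 10.27, 10.74 and 10.35 outside, 10.70, 10.56 and 10.38 in air, 10.67, 10.72 and 10.70 at the low dose and 10.54, 10.55 and 10.49 at the high dose. The high-dose plants lay inside the range of the air plants, with a log2 change of -0.02 ± 0.12.

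Of the PRA1 genes, 5 of 9 were called higher at the high dose against air and none lower. Over all probe sets 14.7% were higher and 34.6% called, and without dim ones 24.2% and 58.6%. Among the 5, the calls of PRA1.B1 and PRA1.B6 were lost in several fits that left out 1 plant. PRA1.B4 (AT2G38360) rose most. It read 7.84, 7.75 and 7.22 outside, 7.41, 6.88 and 6.81 in air, 7.12, 7.42 and 7.82 at the low dose and 10.30, 10.59 and 10.48 at the high dose. The first 3 groups overlapped and the high-dose plants stood above them, with a rise of 3.42 ± 0.24 on the log2 scale, or 10.7-fold (adjusted p = 7.79e-06, limma). PRA1.A1 (AT5G02040) changed less but with little spread: 8.39, 8.34 and 8.17 outside, 8.22 in each air plant, 8.35, 8.12 and 8.35 at the low dose and 9.20, 9.08 and 9.06 at the high dose. Its rise of 0.89 ± 0.08, or 1.85-fold, had an adjusted p of 2.68e-05 (limma). PRA1.E (AT1G08770) read 7.96, 7.77 and 8.15 outside, 8.16, 8.13 and 8.19 in air, 8.04, 7.98 and 8.20 at the low dose and 8.63, 8.77 and 8.46 at the high dose. Again only the high-dose plants were separate, with a rise of 0.46 ± 0.11, or 1.38-fold (adjusted p = 0.00901, limma).

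PRA1.B1 (AT3G56110), with the highest mean of the PRA1 genes, read 8.06, 8.54 and 8.26 outside, 8.41, 8.51 and 8.47 in air, 8.34, 8.57 and 8.82 at the low dose and 9.12, 9.10 and 8.69 at the high dose. High-dose plant 3 lay below low-dose plant 3, and the rise against air was 0.51 ± 0.16 (adjusted p = 0.0400, limma). That call was lost in 7 of the 12 fits that left out 1 plant, those without any air plant, outside plant 3, low-dose plant 2, or high-dose plant 1 or 2 (adjusted p between 0.0580 and 0.129). PRA1.B6 (AT5G07110) read 5.71, 6.21 and 4.96 outside, 5.83, 4.49 and 4.39 in air, 5.58, 5.82 and 6.17 at the low dose and 6.13, 6.74 and 6.72 at the high dose. Air plant 1 lay with the outside and low-dose plants, and air plants 2 and 3 lay below them. Its rise of 1.63 ± 0.44 against air (3.09-fold, adjusted p = 0.0181, limma) was not called without air plant 2 (1.42), air plant 3 (1.37), high-dose plant 2 (1.52) or high-dose plant 3 (1.53), with adjusted p between 0.0552 and 0.0673, and against the outside plants it was 0.91 (adjusted p = 0.154).

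PRA1.F1 (AT1G17700) showed the same split of the air plants: 6.04, 6.31 and 5.26 outside, 5.91, 3.87 and 3.69 in air, 5.51, 6.13 and 6.26 at the low dose and 5.71, 6.03 and 6.49 at the high dose. Its log2 change of 1.58 against air was not called (adjusted p = 0.0616, limma), and without air plant 1 it was 2.29 (adjusted p = 0.00180). PRA1.H (AT4G27540) read 6.70 in each outside plant, 6.70, 6.70 and 7.05 in air, 6.52, 6.70 and 6.71 at the low dose and 6.79, 7.32 and 7.09 at the high dose. It passed only high against low (0.42, adjusted p = 0.0467, limma), a call lost in 10 of the 12 fits that left out 1 plant, all but those without air plant 3 or high-dose plant 1, with adjusted p from 0.0539 to 0.161 and log2 changes down to 0.30 without high-dose plant 2. PRA1.G2 (AT5G56230) ranged from 4.60 to 5.21 and was not called, and PRA1.G1 (AT1G55640) was at the lowest value in all plants.

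**Figure D2:**
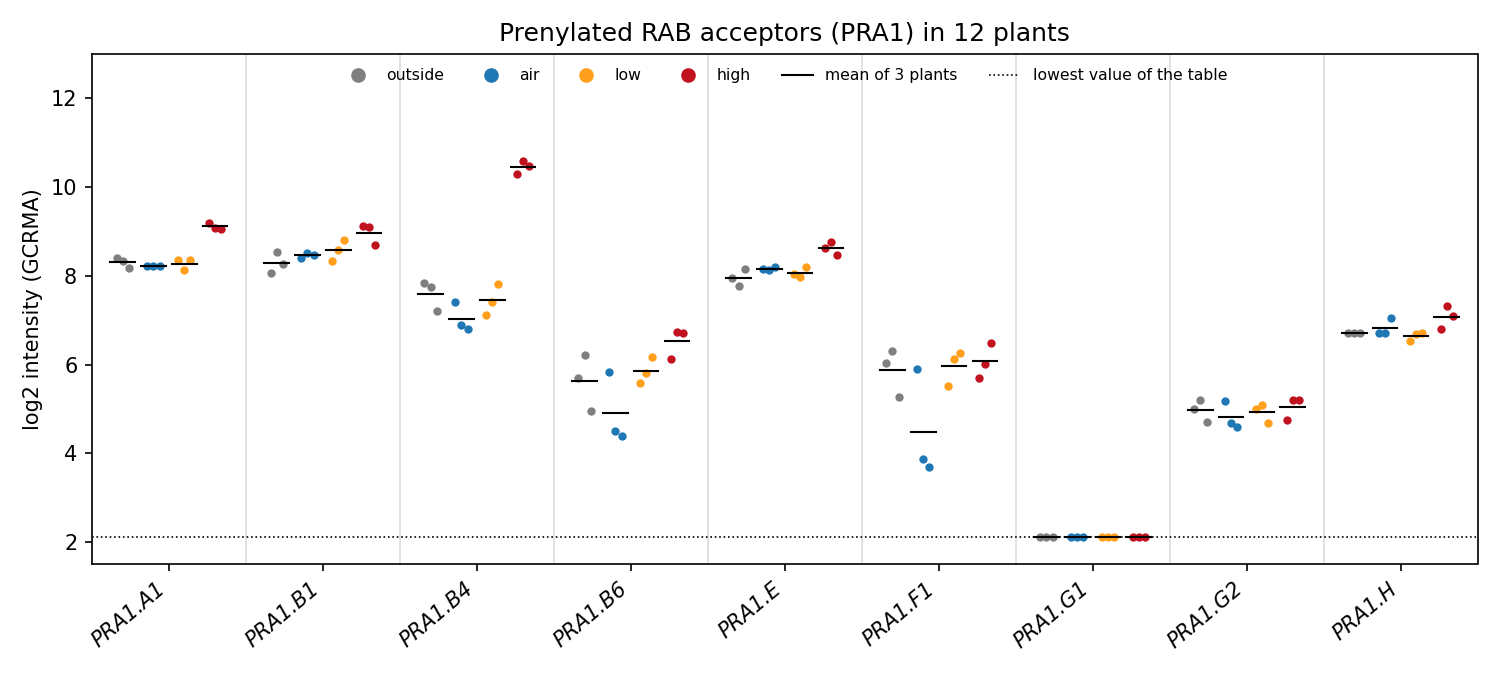
Log2 intensity (GCRMA) of each PRA1 gene in the 12 plants; points are plants, bars are means of 3 plants and the dotted line is the lowest value of the table. PRA1.B4, PRA1.A1 and PRA1.E are separate only at the high dose, and air plants 2 and 3 lie below air plant 1 for PRA1.B6 and PRA1.F1.

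Among the SEC genes, those for membrane fusion rose at the high dose. SEC1B (AT4G12120), a Sec1/Munc18 relative of KEULE, had the largest rise of the members. Its log2 values were 3.31, 3.62 and 3.90 outside, 4.01, 3.66 and 2.77 in air, 3.62, 3.39 and 3.66 at the low dose and 7.69, 7.94 and 7.47 at the high dose. In the other groups it lay at the dim end of the table, and the high-dose plants were well above, with a rise of 4.22 ± 0.30, or 18.6-fold (adjusted p = 8.99e-06, limma). SEC22 (AT1G11890), an R-SNARE of traffic between endoplasmic reticulum and Golgi, read 9.37, 9.54 and 9.46 outside, 9.50, 9.54 and 9.20 in air, 9.51, 9.61 and 9.57 at the low dose and 10.80, 10.91 and 10.70 at the high dose. The lower 3 groups overlapped and the rise was 1.39 ± 0.09, or 2.62-fold (adjusted p = 6.58e-06, limma).

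Of 6 exocyst subunit genes, SEC15B alone was called at the high dose against air, beside 34.6% of all probe sets (58.6% without dim ones). SEC15B (AT4G02350) read 8.38, 8.12 and 8.30 outside, 8.68, 7.77 and 7.69 in air, 8.57, 8.32 and 7.99 at the low dose and 9.99, 9.73 and 9.58 at the high dose. The high-dose plants were above all others, with a rise of 1.72 ± 0.26, or 3.30-fold (adjusted p = 0.000821, limma). SEC15A (AT3G56640) ranged from 4.94 to 6.36, its extremes both in air plants, and its log2 change was -0.01. SEC5A (AT1G76850) read 8.50, 9.28 and 9.08 outside, 8.84, 8.77 and 8.83 in air, 8.98, 8.82 and 8.84 at the low dose and 8.50, 8.44 and 8.21 at the high dose. The high-dose plants lay below the air plants, and the log2 change of -0.43 was not called (adjusted p = 0.0889, limma). It was called at the same size without outside plant 1 (adjusted p = 0.00584) or outside plant 2 (0.0472), and against the outside plants SEC5A fell by 0.57 (adjusted p = 0.0282). SEC5B (AT1G21170), between 4.04 and 4.86, SEC6 (AT1G71820), between 8.36 and 9.30, and SEC10 (AT5G12370), between 8.49 and 9.21, had log2 changes of -0.15, 0.38 and 0.23 against air and were not called. The Columbia genome holds a near-identical second SEC10 gene, and how far the SEC10 probe set reads both was not tested.

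**Figure D3:**
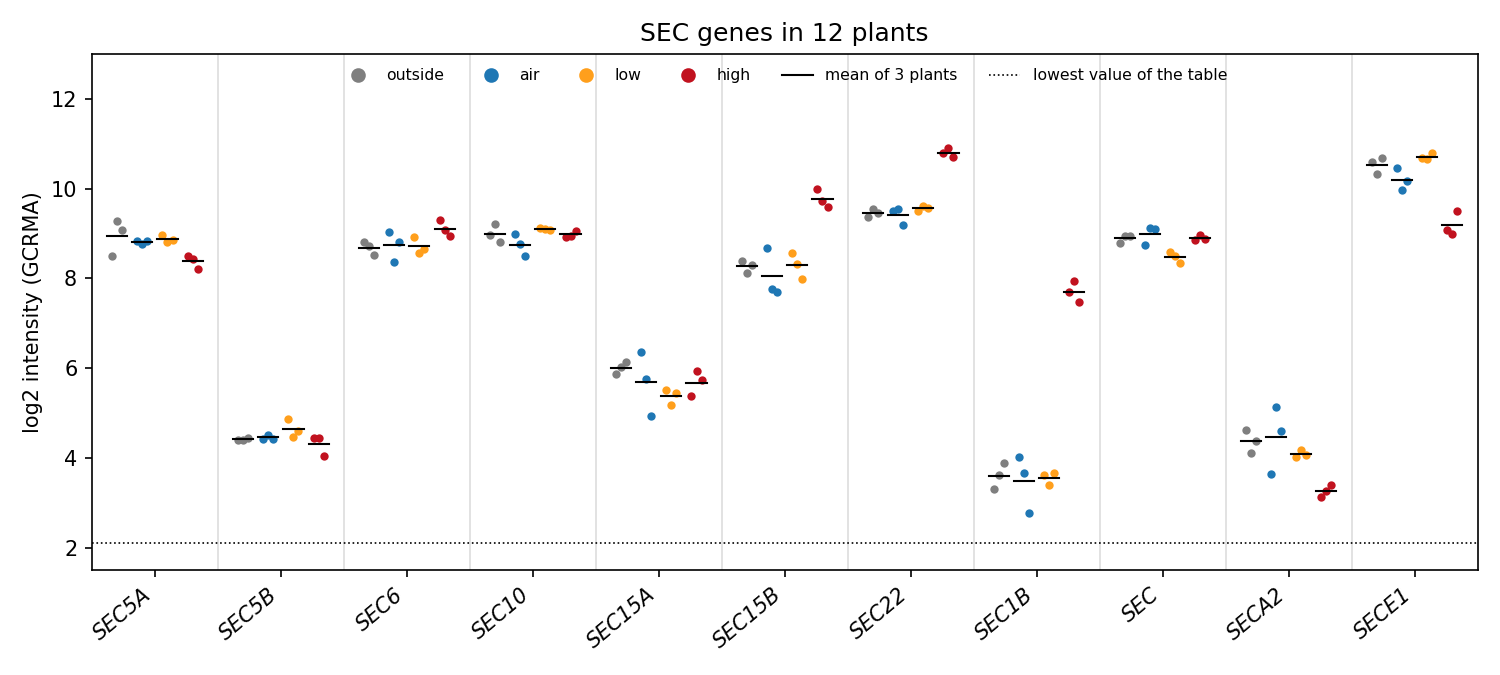
Log2 intensity (GCRMA) of each SEC gene in the 12 plants; points are plants, bars are means of 3 plants and the dotted line is the lowest value of the table. SEC1B, SEC22 and SEC15B lie higher and SECE1 and SECA2 lower at the high dose. For SEC5A the high-dose plants lie below all air and low-dose plants, without a call against air. SEC5B, SEC6, SEC10 and SEC15A lie near the other groups.

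Names can mislead here, since 3 members carry a SEC symbol for another function. SECE1 (AT4G14870) and SECA2 (AT1G21650) belong to protein translocases of the plastid, and SEC (AT3G04240), SECRET AGENT, is an O-GlcNAc transferase. SECE1, with the highest mean of the SEC genes, read 10.59, 10.33 and 10.68 outside, 10.45, 9.97 and 10.16 in air, 10.69, 10.66 and 10.79 at the low dose and 9.09, 8.98 and 9.50 at the high dose. The low-dose plants were above every air plant and the high-dose plants below, with a fall against air of 1.01 ± 0.16 on the log2 scale (adjusted p = 0.00111, limma) and against the low dose of 1.52 ± 0.16 (adjusted p = 0.000101). SECA2 read 4.63, 4.11 and 4.37 outside, 3.65, 5.13 and 4.59 in air, 4.03, 4.17 and 4.06 at the low dose and 3.12, 3.27 and 3.39 at the high dose. It fell by 1.20 ± 0.32 against air (adjusted p = 0.0164, limma), a call lost without air plant 3 (-1.13, adjusted p = 0.0533) or high-dose plant 1 (-1.13, adjusted p = 0.0547). SEC read 8.78, 8.95 and 8.95 outside, 8.75, 9.13 and 9.10 in air, 8.60, 8.51 and 8.34 at the low dose and 8.85, 8.97 and 8.87 at the high dose. Low-dose plants were below the others, and SEC was called high against low (0.42, adjusted p = 0.0150, limma), a call lost without low-dose plant 3 or high-dose plant 2 (adjusted p = 0.0584 and 0.0561). Leaving out these 3 genes, the members called at the high dose against air numbered 13 higher and 1 lower, VPS9B, among 28. Over all probe sets 34.6% were called there, with 14.7% higher and 19.9% lower. Without dim probe sets these shares were 58.6%, 24.2% and 34.4%.

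At the low dose the members closest to the threshold against air were SEC, with a log2 change of -0.51 (adjusted p = 0.0623, limma), and VPS60.2, with -0.37 (adjusted p = 0.0717). The group means of VPS60.1 were 7.45 outside, 7.92 in air, 8.41 at the low dose and 10.93 at the high dose. Of those, low against air (0.49, adjusted p = 0.189) and air against outside (0.46, adjusted p = 0.182) were not called by limma, and low against outside was (0.95, adjusted p = 0.0140), 1 of 31 members beside 7.8% of all probe sets. Which air plants were used mattered at the low dose: without air plant 1, limma called 8 members against air, PRA1.F1, SEC10, SECE1, VPS46.2 and VPS60.1 higher and SEC, SECA2 and VPS60.2 lower, where all 12 arrays gave 0. In that fit 9.89% of all probe sets were called, beside 1.24% with all arrays. VPS2.2 came nearest to a call between air and outside (-0.93, adjusted p = 0.0816, limma), and was called there without high-dose plant 2 (adjusted p = 0.0245), while PRA1.F1 was called there without air plant 1 (-2.09, adjusted p = 0.0138).

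**Figure D4:**
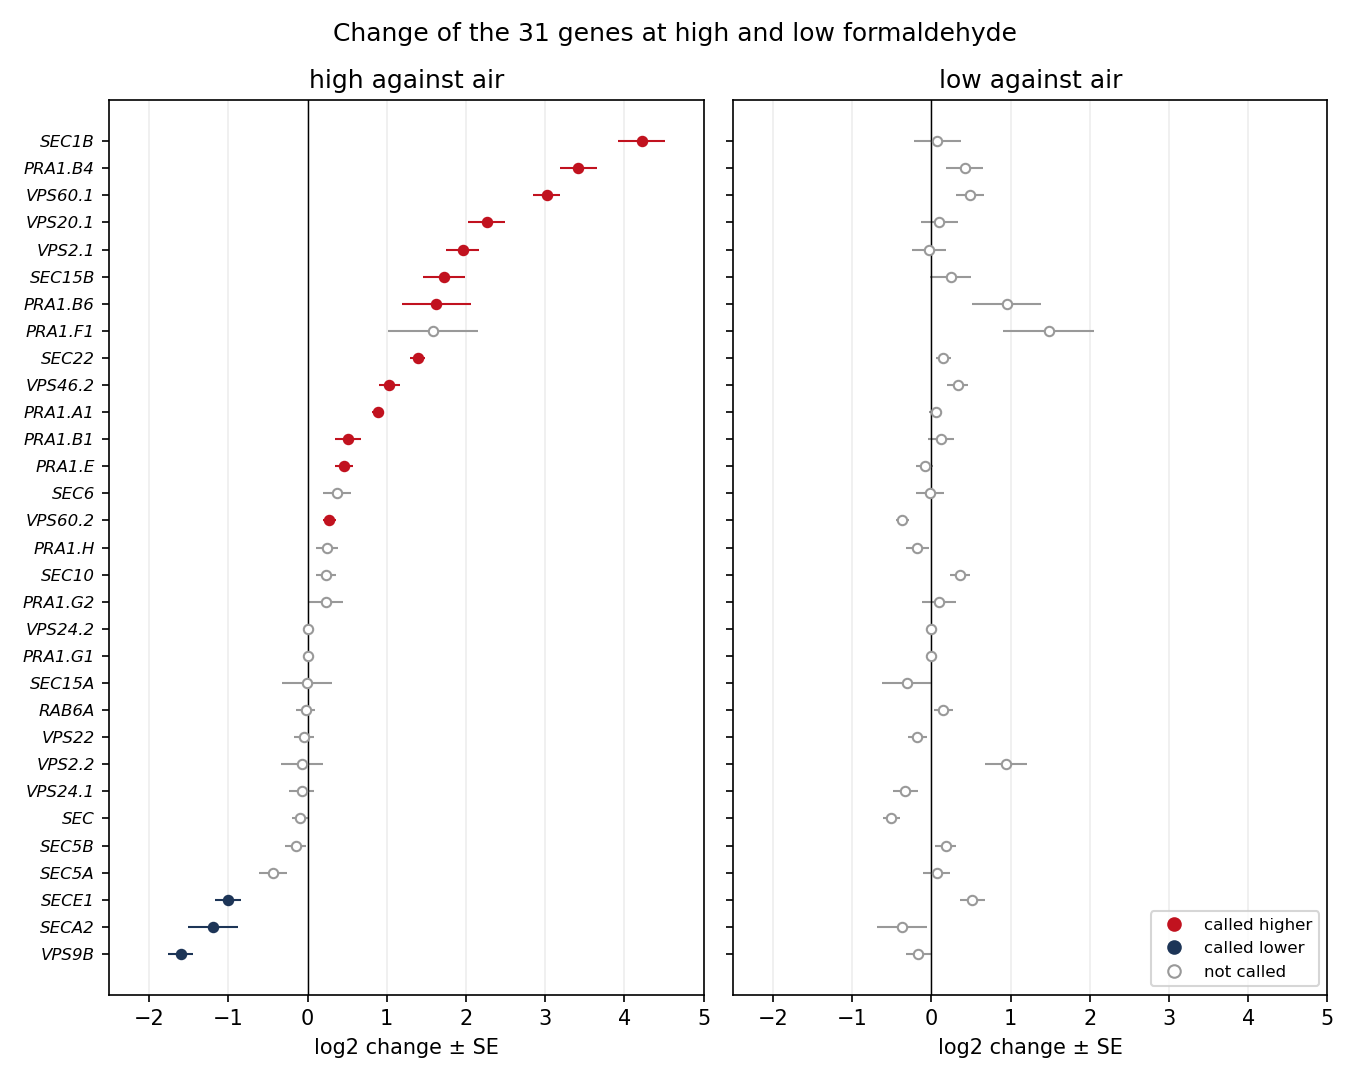
Log2 change ± SE of each of the 31 members (x axis), at the high dose on the left and at the low dose on the right, each against air; filled points are calls at an adjusted p under 0.05, red for higher and dark blue for lower. The 16 calls lie on the left, and the right side holds none.

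For 5 pairs of copies of 1 subunit, the difference between their changes (high against air) was compared by an exact two-sided permutation of the 3 high-dose and 3 air plants, whose smallest possible p is 0.1. VPS60.1 and VPS60.2 differed by 2.74 on the log2 scale, VPS2.1 and VPS2.2 by 2.03, SEC15B and SEC15A by 1.73 and SEC5A and SEC5B by -0.28. Each of these had the smallest p the exact permutation allows (0.1, adjusted over the 5 pairs 0.125), so the design cannot pass the threshold. VPS24.1 and VPS24.2 differed by -0.08 (exact permutation p = 0.7), with VPS24.2 at background throughout.

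Other genes of membrane traffic were taken from a list of 122 genes of coats, clathrin, adaptors, SNAREs, ESCRT, tethers and RAB regulators, 121 of them not members. The array annotation paired 43 of these with 44 probe sets. Against air at the high dose 16 probe sets were higher, 2 lower and 26 not called (40.9%, beside 34.6% of all), with a median log2 change of 0.27. Without dim probe sets the share over the rest of the array was 58.6% called, with 24.2% higher and 34.4% lower. The list was not counted under that filter. At the low dose against air none of the 44 was called, beside 1.24% of all probe sets and 8.19% without dim ones. Of the 44, 2 had an unadjusted p under 0.05, beside 4065 of the 22746 probe sets. The strongest rise after GCRMA was that of USE12, a SNARE, by 2.49 ± 0.19 (adjusted p = 1.3e-05, limma), from 6.67, 6.59 and 6.26 in air to 9.14, 9.16 and 8.70 at the high dose. ELC, the ubiquitin-binding ESCRT-I subunit, rose by 2.19 ± 0.12, from 8.36, 8.20 and 7.97 in air to 10.33, 10.36 and 10.40. In both the high-dose plants were separate from all other groups.

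Next in order of adjusted p among the 16 came COPBP1, a COPI coat subunit, KEULE, the Sec1/Munc18 relative of SEC1B, SFT12, a Golgi SNARE, and CLC1, a clathrin light chain. KEULE rose by 1.00, SFT12 by 1.24 and CLC1 by 0.89 on the log2 scale, and COPBP1 by 0.87 on 1 of its 2 probe sets, the other giving 0.30 without a call. The other COPI rises were those of COPE1 (0.82) and COPE2 (0.77). EXO84C, an exocyst subunit, fell by 0.97, and COPG, a COPI coat subunit, by 0.44. By class, 3 of 4 ESCRT and multivesicular body probe sets, 4 of 7 for adaptors and 3 of 7 for SNAREs and their partners were higher. So were 3 of 11 for COPI, 2 of 6 for tethers and the 1 for clathrin. These stand beside 14.7% higher of all probe sets and 24.2% without dim ones. None was called of the 3 for ARF GTPases and their exchange factors, the 3 for RAB regulators and the 2 for dynamin and EHD proteins. High against low gave 15 higher and 4 lower of the 44, beside 33.8% of all probe sets called (8197 of 14399 without dim ones). Between air and outside BIG1, an exchange factor of ARF GTPases, fell by 0.39 (adjusted p = 0.0331, limma). It was the only call of the list there, beside 5.6% of all probe sets and 13.5% without dim ones.

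**Figure D5:**
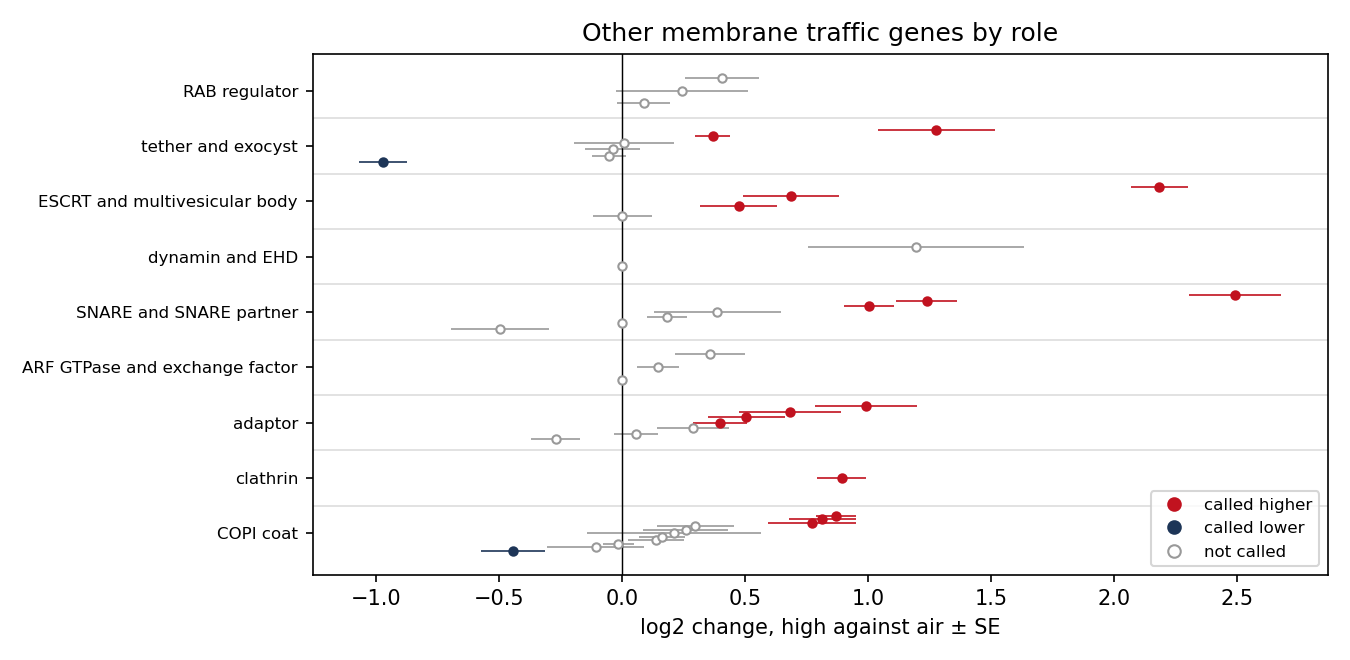
Log2 change ± SE (x axis) of the 44 other membrane traffic probe sets at the high dose against air, in rows by class; filled points are calls at an adjusted p under 0.05, red for higher and dark blue for lower. USE12 and ELC lie farthest to the right, and EXO84C and COPG are the lower calls.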

How the data were processed

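Rosette leaf RNA of 12 plants, 3 in each of 4 groups, was hybridised to 1 array per plant. The deposited values are log2 intensities per probe set made by the authors with GCRMA, per the submitters' processing notes, with its options and version not given in the sources used here. GCRMA normalizes the arrays together and pulls dim probe sets to a common lowest value, so small intensities and folds of dim genes are compressed. The values were used as deposited, and the number of arrays, 12, limits the precision. The 22746 probe sets other than controls were tested with limma 3.58.1 in R 4.3.3 (lmFit and eBayes with a mean trend, all 12 arrays, 8 residual degrees of freedom), adjusted by Benjamini-Hochberg and called at 0.05, and the code was tested on simulated data. Genes were named from the array's annotation and checked against the RefSeq gene table of assembly TAIR10.1, used for names only (all 31 members found). Members and lists were chosen with earlier results of these data known. Every member is named. Values for each plant are given for up to 4 called members per family and direction with the smallest adjusted p, for the highest member of each family and for members close to a call, the last chosen after their values were seen; of the other list up to 6 per direction are named. The alternatives were another normalization, leaving out dim probe sets, other variance settings, a replicate block, only the 6 arrays compared, outside plants as control, a 2-fold minimum and each plant left out. Leaving out air plants 2 and 3 together was added after seeing the data. Probe sets shared by several genes were not members.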

Additional observations from a re-analysis of the deposited data

How the results depend on the processing

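Against air at the high dose the count of called members was 16 and lay between 14 and 17 under other normalizations, variance settings, controls and the replicate block, at 12 with a 2-fold minimum, at 12 to 17 with 1 plant left out and at 11 with air plants 2 and 3 left out, chosen after seeing the data. No result changed direction while called, and of the single members' values under alternatives 2451 kept their side of the threshold, 38 passed it and 45 lost it. PRA1.B1, PRA1.B6, SECA2 and VPS60.2 lost their call against air in at least 1 alternative, and the other 12 called members kept theirs in all planned ones. PRA1.F1, not called there, was called with arrays centred on their medians (1.65, adjusted p = 0.0262), after quantile normalization (1.62, adjusted p = 0.0470) and without dim probe sets (1.58, adjusted p = 0.0202). At the low dose the count of 0 became 1 without dim probe sets (SEC), 1 with outside plants as control (VPS60.1) and 0 to 8 with 1 plant left out. High against low, 16 became 10 with a 2-fold minimum and 13 to 16 with 1 plant left out. It became 18 without dim probe sets (5 lower), 17 after quantile normalization (4 lower) and 17 on 6 arrays (5 lower). SECA2 was called lower in each of these 3, SEC5A without dim probe sets and on 6 arrays, and RAB6A on 6 arrays. With 1 plant left out, SEC5A was called without outside plant 1 or 2, SECA2 without air plant 1 or 2 and PRA1.B1 without high-dose plant 3. Between air and outside, 0 became 1 with centred arrays and 1 without dim probe sets (VPS2.2 in both), 0 to 1 with 1 plant left out and 2 with air plants 2 and 3 left out (VPS46.2 and VPS60.1). Over all probe sets, the low dose count of 283 became 678 with centred arrays, 1179 without dim probe sets, 7 on 6 arrays, 81 with the block, 1775 with outside control and 76 to 2250 with 1 plant left out; 1274 between air and outside became 1949, 58 on 6 arrays, 845 with the block and 603 to 2137. Replicate numbers did not pair the plants (correlations of same-numbered deviations from -0.27 to 0.23, 5 of 18 over 0.1); with the number as a block the member counts were 14 high against air, 17 high against low, 0 low against air and 0 air against outside.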

Other observations

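3 further probe sets carry one of the prefixes but are paired with several genes. The probe set of SEC3B and SEC3A, exocyst subunits, fell by 0.32 high against low (adjusted p = 0.041, limma) and by 0.40 high against outside (adjusted p = 0.012), and its log2 change against air was -0.26 (adjusted p = 0.084). Of the pair of probe sets shared by PRA1.F4 and AT3G13700, one fell by 0.95 high against low (adjusted p = 0.035, limma) and by 1.03 high against outside (adjusted p = 0.022), with -0.37 against air (adjusted p = 0.426), and the other stayed near the lowest value, between 2.15 and 2.33.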
